A study of Chlorocebus aethiops with 30 samples.

Results

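The 52 cytosolic ribosomal protein genes described here were found among the 1237 genes that the authors listed for cells collected directly after trypsin against cells collected directly after TrypLE. They were chosen by symbol alone, as names of the form RPL or RPS followed by a number, with RPLP and RPSA included and with mitochondrial ribosomal proteins and the RPS6K kinases left out. Of these, 29 encode large subunit proteins and 23 small subunit proteins. The cytosolic ribosome translates messenger RNA in every cell. Its small subunit holds the decoding centre and its large subunit holds the peptidyl transferase centre and the exit tunnel, and each subunit is built on ribosomal RNA with a large set of small basic proteins. The proteins are made in near equal molar amounts, and most vertebrate ribosomal protein mRNAs are short, abundant and long-lived. They start with a terminal oligopyrimidine tract through which mTOR signalling sets their translation. Gene symbols and numbers are used as the authors' table gives them, and scaffold positions are left out because the genome build is not given in the sources used here.

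The cells were Vero, a continuous epithelial line from African green monkey kidney labelled as wild type, grown in MEM with serum. Trypsin at 37 °C detached the first group and TrypLE, a recombinant enzyme sold as a trypsin substitute, at 37 °C the second, and both were sampled by bulk RNA sequencing at 0, 8 and 24 h. The 0 h samples were taken as soon as the enzyme had acted, while those at 8 and 24 h came from cells put back into culture and then lifted without enzyme. A control group was lifted with the enzyme-free solution at 37 °C and collected at once. Each group had 3 samples, which the design text calls biological replicates without saying whether they were separate cultures, so p-values measure the spread between these samples and no more. The 9 samples treated with TrypLE from 4 °C at 25 °C were not analysed here.

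Single libraries were analysed for trypsin and TrypLE at 0 h. Each value is a normalized count, which is the read count of a gene divided by a size factor for the library, as the authors made it. Reads over all listed genes ran from 1656319 to 2192333 per library, and the ribosomal protein genes took 16.6% to 20.9% of them in the trypsin libraries and 22.2% to 23.1% in the TrypLE libraries. Every member had at least 261 normalized counts in every library. Only genes whose unadjusted p fell below 0.05 are in the table, so every listed gene had to differ, and counts over the members describe these libraries without adding support. Of the 8 epithelial markers checked, 1, the tight junction gene TJP1, was listed, with 2179 ± 338 normalized counts with trypsin against 1759.6 ± 61.5 with TrypLE (SD, n = 3 libraries each) and did not pass (authors' deposited table, adjusted p = 0.403). None of the 6 fibroblast, 3 immune and 3 endothelial markers was listed, and the label could not be checked further on listed genes.

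All 52 ribosomal protein genes were lower after trypsin, where 57.1% of all listed genes were. In the authors' deposited table an adjusted p below 0.05 was given for 34, 18 of 29 large subunit and 16 of 23 small subunit genes, where 17.5% of all listed genes passed as lower. The 3 trypsin values lay below the 3 TrypLE values for 45 of the 52, against 47% of all listed genes. The median log2 fold change of trypsin over TrypLE was -0.53 for the members, -0.53 for the large and -0.54 for the small subunit, against -0.29 for all listed genes. Single genes ran from -1.70 for RPS27 to -0.26 for RPS16. Other listed genes of like length were also mostly lower. Of the 553 others within the members' range of length (414 to 2169 bases), 474 were lower, 389 of the 553 did so without overlap, and 146 passed as lower. Their median log2 fold change was -0.50, and they include unnamed loci described as ribosomal proteins. Summed over the members, the libraries held 373662, 281402 and 314481 normalized counts after trypsin and 493308, 450600.0 and 440250.0 after TrypLE. The sum was thus 29.95% lower after trypsin, and the libraries of the groups did not overlap. In bulk RNA, fewer cells with these transcripts and less of them per cell cannot be told apart.

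The count of calls moved with the test and with the libraries. An edgeR quasi-likelihood refit of the listed genes called 24 of the members lower, with 13.4% of the genes it tested called lower, and DESeq2 called 30, with 14.1%. Without trypsin replicate 1 edgeR called 37 members and 15.8% of the genes tested, and without TrypLE replicate 1 it called 17 members and 7.26%. In these refits member counts and general shares moved in the same direction. Without TrypLE replicate 3 they did not, at 23 members and 13.9%. Of the 34 genes that the authors' deposited table calls, 16 were called lower in all 15 refits that kept the length of genes out of the model. These 16 were RPL23, RPL28, RPL35, RPS28 and the 12 members that passed with a fall of at least 2-fold (5.98% of all listed genes passed so). How many other listed genes were called in all 15 refits was not counted, so 16 of 34 cannot be placed against them.

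Among small subunit genes the largest falls were in RPS27 and RPS29, which encode small zinc-binding proteins. RPS27 (gene 103223938) had 1141, 939 and 1044 normalized counts in trypsin replicates 1 to 3 against 5641, 2374 and 2148 in TrypLE replicates 1 to 3. The trypsin libraries lay close together, and TrypLE replicate 1 held 2.49-fold the mean of the other TrypLE libraries. The authors' deposited table gave a log2 fold change of -1.70 (adjusted p = 0.0152). RPS29 (gene 103228935) had 370.5, 382 and 388 normalized counts in trypsin replicates 1 to 3 against 1819.5, 1046 and 773 in TrypLE replicates 1 to 3. Its log2 fold change there was -1.67 (authors' deposited table, adjusted p = 0.000855), again with the highest value in TrypLE replicate 1. RPS26 (gene 103238500), whose protein lies at the mRNA exit site, had 2911, 2405 and 2358 normalized counts in trypsin replicates 1 to 3 against 6740.1, 5800.4 and 5457 in TrypLE replicates 1 to 3. The groups were well apart and the TrypLE libraries close together, and RPS26 had the lowest p of all members, 8.8e-20 after adjustment in the authors' deposited table, at a log2 fold change of -1.23.

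RPS21 (gene 103243068) had 1357, 931 and 1101 normalized counts in trypsin replicates 1 to 3 against 3332, 2745 and 2222 in TrypLE replicates 1 to 3, a log2 fold change of -1.29 (authors' deposited table, adjusted p = 8.44e-13). RPS15A had 3031 ± 383 normalized counts with trypsin against 6086 ± 1277 with TrypLE (SD, n = 3 libraries each). RPS25, a small subunit protein that many viral internal ribosome entry sites need, had 2734 ± 349.8 normalized counts with trypsin against 5483 ± 629.5 with TrypLE (SD, n = 3 libraries each). Both were lower by about the same share, 50.2% and 50.1%, and the authors' deposited table gave log2 fold changes of -1.01 for RPS15A (adjusted p = 2.59e-09) and, for RPS25, -1.004 (adjusted p = 1.62e-12). Smaller falls were found in RPS28 and in RPS19, a gene mutated in Diamond-Blackfan anaemia. RPS28 had 1214 ± 191 normalized counts with trypsin against 2193 ± 151 with TrypLE (SD, n = 3 libraries each). For RPS28 and RPS19 the authors' deposited table gave -0.85 and -0.63 on the log2 scale.

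Among large subunit genes the 6 largest falls that left the groups apart were in RPL38, RPL37, RPL39, RPL36, RPL37A and RPL31. RPL38 (gene 103243097), a protein that mouse embryos need for the translation of a subset of Hox mRNAs, had 830.0, 606 and 725 normalized counts in trypsin replicates 1 to 3 against 2780.4, 1805 and 1518 in TrypLE replicates 1 to 3. RPL37 (gene 103215178), a zinc-binding protein, had 1084, 958 and 979 normalized counts in trypsin replicates 1 to 3 against 3723, 2628 and 2139.9 in TrypLE replicates 1 to 3. RPL39 (gene 103247342), a very small protein in the wall of the exit tunnel, had 1655, 1338 and 1379.9 normalized counts in trypsin replicates 1 to 3 against 5556, 3355 and 3067 in TrypLE replicates 1 to 3. In all 3 genes every trypsin library was below every TrypLE library, and TrypLE replicate 1 was the highest. The log2 fold change was -1.50, -1.49 and -1.45 (adjusted p 9.74e-05, 5.88e-16 and 0.000187 in the authors' deposited table). The trypsin libraries of RPL37 lay closer together than those of RPL38 and RPL39 (SD 67.6 on a mean of 1007 normalized counts, n = 3).

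RPL36 (gene 103233745) had 1488, 1044 and 1183 normalized counts in trypsin replicates 1 to 3 against 3776, 3065 and 2539 in TrypLE replicates 1 to 3. RPL37A had 1677 ± 247 normalized counts with trypsin against 3870.1 ± 1019.8 with TrypLE (SD, n = 3 libraries each). RPL31, a protein at the mouth of the exit tunnel, had 3238 ± 418 normalized counts with trypsin against 6893 ± 1048 with TrypLE (SD, n = 3 libraries each). On the log2 scale these 3 genes stood at -1.34, -1.21 and -1.09 (adjusted p 2.88e-14, 1.73e-10 and 2.41e-13 in the authors' deposited table). The abundant members RPL23, RPL35 and RPL28 also fell, and their TrypLE libraries lay closer together than those of the genes above. RPL28 had 12307, 9744 and 10438 normalized counts in trypsin replicates 1 to 3 against 17315, 18760.5 and 17774 in TrypLE replicates 1 to 3. RPL23, RPL35 and RPL28 had log2 fold changes of -0.87, -0.81 and -0.73 (adjusted p 2.88e-11, 8.68e-10 and 2.76e-08 in the authors' deposited table).

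**Figure D1:**
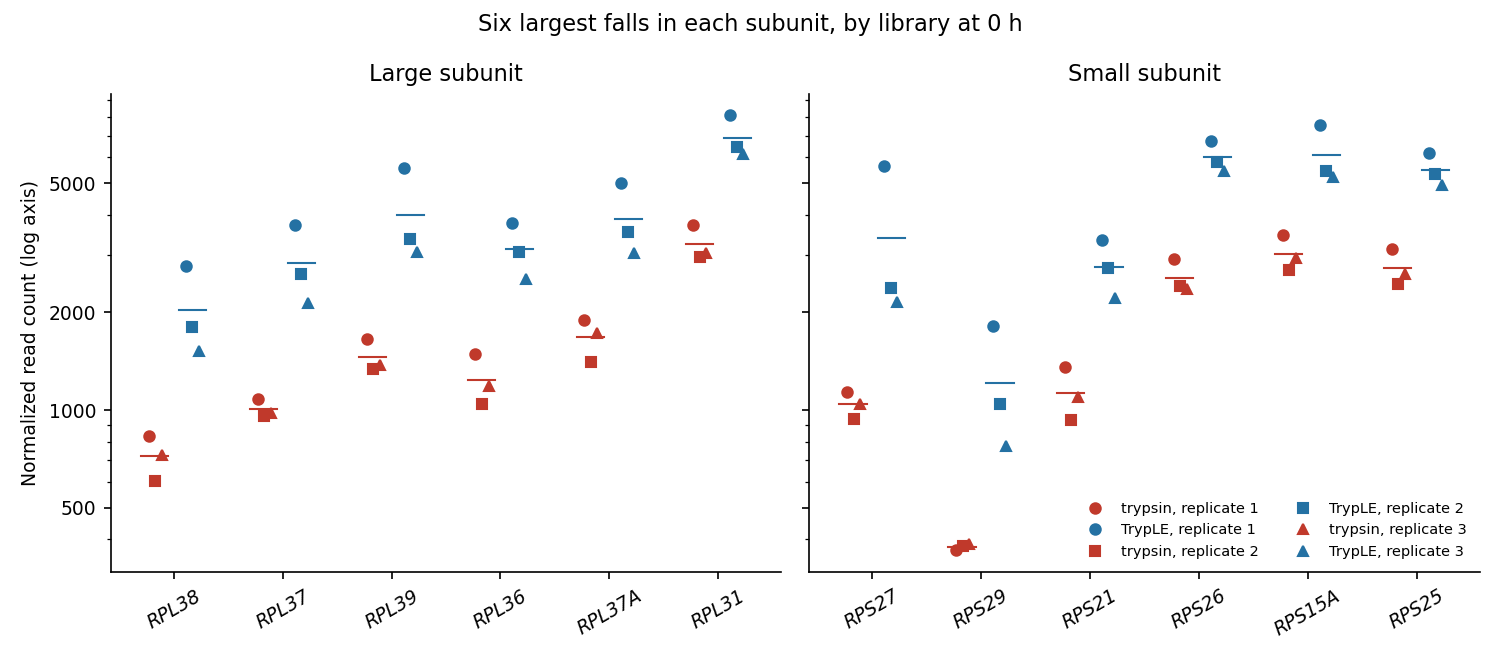
Normalized read counts (log axis) of the 6 large and 6 small subunit genes with the largest falls among those whose libraries do not overlap between groups. Each point is 1 library of trypsin (red) or TrypLE (blue) at 0 h, symbols give the replicate number and bars the mean of 3 libraries. All trypsin points lie below the TrypLE points, and in RPS27 TrypLE replicate 1 stands at 5641 against 2374 and 2148.

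At the other end, the 3 smallest differences of the large subunit were in RPL29, RPLP1 and RPL14, and those of the small subunit in RPS16, RPS20 and RPS10. RPLP1, a protein of the stalk that recruits elongation factors, had 16851, 12207 and 13911 normalized counts in trypsin replicates 1 to 3 against 17402, 17832 and 17290.5 in TrypLE replicates 1 to 3. RPS16 had 11077, 8205 and 8922 normalized counts in trypsin replicates 1 to 3 against 10958, 11712 and 11031 in TrypLE replicates 1 to 3, so that trypsin replicate 1 lay within the range of the TrypLE libraries. The authors' deposited table gave log2 fold changes of -0.29 for RPLP1 (adjusted p = 0.416) and, for RPS16, -0.26 (adjusted p = 0.573). The others had log2 fold changes of -0.27 for RPL29, -0.29 for RPL14, -0.27 for RPS20 and -0.27 for RPS10, and none of the 6 passed there. The stalk gene RPLP2 had 4572 ± 719 normalized counts with trypsin against 6591 ± 695 with TrypLE (SD, n = 3 libraries each) and passed in the authors' deposited table (adjusted p = 0.00505), though not in edgeR (adjusted p = 0.081).

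Between these ends lay 11 further members that passed, RPL30, RPL35A, RPL34, RPL27, RPS23, RPS15, RPL27A, RPL26, RPS18, RPL32 and RPS12, with log2 fold changes of -0.79 to -0.43 in the authors' deposited table. RPS23, whose protein lines the decoding centre, had 5071, 3776 and 4267 normalized counts in trypsin replicates 1 to 3 against 6923, 6104 and 6224 in TrypLE replicates 1 to 3. RPL27A, a large subunit protein, had 8951, 6916 and 7420.4 normalized counts in trypsin replicates 1 to 3 against 11389.8, 10963 and 10368 in TrypLE replicates 1 to 3. In both genes the trypsin libraries lay below all TrypLE libraries, and the gap from the highest trypsin to the lowest TrypLE library was smaller than the spread of the trypsin libraries. RPL26, which binds p53 mRNA in human cells, had 4764 ± 835 normalized counts with trypsin against 6679 ± 728 with TrypLE (SD, n = 3 libraries each; adjusted p = 0.0232, authors' deposited table). RPL23A, RPL19 and RPS13 were listed with log2 fold changes of -0.38, -0.29 and -0.32, and did not pass (adjusted p = 0.109, 0.358 and 0.19 in the authors' deposited table). RPL26 and these 3 genes were named after their values were seen. Of the 34 genes called there, RPL32 and RPS14 were each called in 1 of 16 refits and RPL22, RPL26, RPLP2 and RPS12 in 2.

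RPS14 lay just inside the threshold, with a log2 fold change of -0.42 (authors' deposited table, adjusted p = 0.0366). Just outside were RPS24 and RPL24, with adjusted p of 0.0597 and 0.0866 and log2 fold changes of -0.42 and -0.42, so sizes were alike on both sides of the threshold. Among the 7 members whose libraries overlapped between the groups were RPL39L, RPL5, RPL14, RPS10 and RPS16, and 0 of the 7 passed. RPL5 and RPL11, which join the large subunit with a small ribosomal RNA and can bind MDM2, stood at -0.31 and -0.36 on the log2 scale and did not pass (authors' deposited table, adjusted p = 0.501 and 0.176). RPL21 did not pass either (log2 fold change -0.58, authors' deposited table, adjusted p = 0.615). It had 4780.3, 3563 and 4187 normalized counts in trypsin replicates 1 to 3 against 8484, 5015 and 5284 in TrypLE replicates 1 to 3, and TrypLE replicate 1 again stood above the rest. RPL5, RPL11 and RPL21 were chosen for naming after their values were seen.

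Log2 fold changes were more negative in members of lower level. Per kilobase of gene length, levels over the 6 libraries ran from 431 normalized counts for RPL39L to 30200.4 for RPLP1 in the large subunit, and from 889.8 for RPS29 to 31038 for RPS12 in the small subunit. When the members were ranked by level per kilobase, the lowest 17 had a median log2 fold change of -1.004, the middle 17 one of -0.49 and the highest 18 one of -0.41. A fall of at least 2-fold was found in 9, 3 and 0 members of these sets. Across the 52 genes, Spearman's rho between log2 fold change and level per kilobase was 0.56 (Pearson's r 0.51), and between log2 fold change and length 0.26 (r 0.29). These are descriptions across genes that share libraries and that were listed because they differed. Among the 229 other listed genes under 1000 bases with a mean of at least 50 normalized counts rho between log2 fold change and mean count was 0.38, against 0.66 for the members. These other genes include unnamed loci described as ribosomal proteins and genes that were higher after trypsin. The members include 11 of at least 1000 bases and were all lower, so the sets are unlike and the rho values are not a matched comparison.

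**Figure D2:**
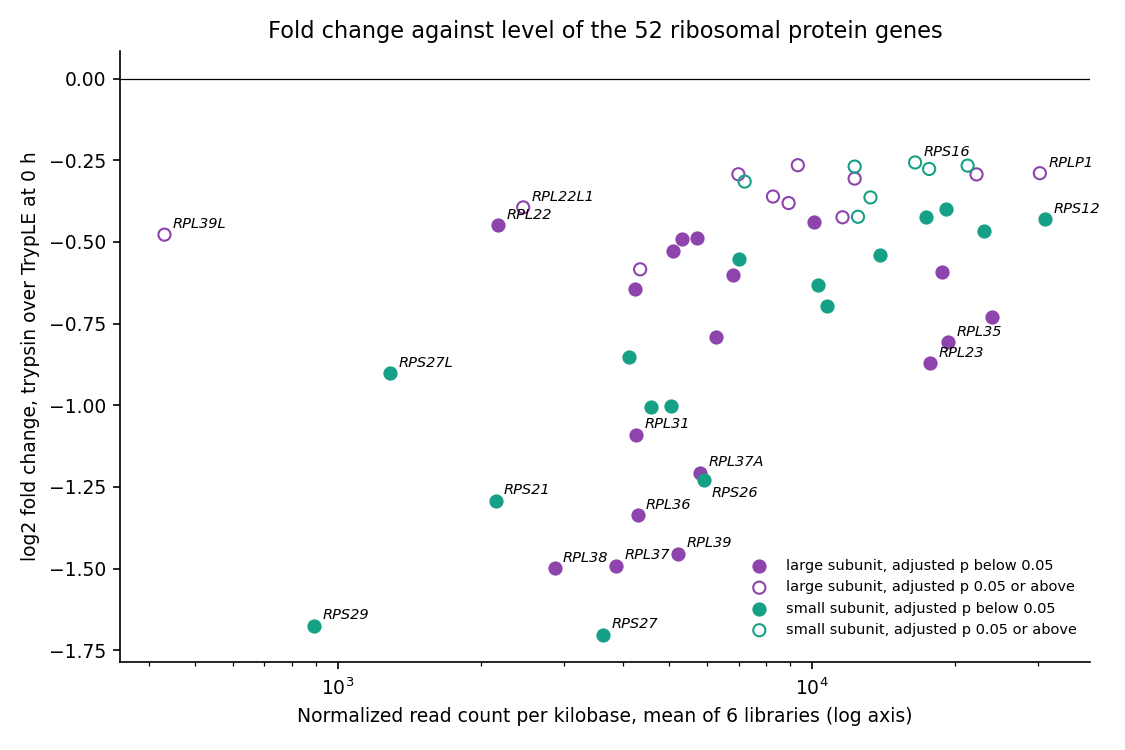
Log2 fold change of trypsin over TrypLE at 0 h in the authors' deposited table (vertical axis) against the mean normalized count per kilobase of 6 libraries (log axis) for the 52 genes. Purple marks large and green small subunit genes, and filled points passed an adjusted p of 0.05. All points lie below 0, and the 12 genes with a fall of at least 2-fold lie at or below 5902 normalized counts per kilobase.

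Whether the subunits changed together depended on how members were weighted. With each gene given equal weight, the mean log2 level of large subunit genes was below that of small subunit genes by a like amount in both groups. The difference of large minus small was -0.202, -0.233 and -0.228 with trypsin and -0.244, -0.234 and -0.226 with TrypLE, and the groups overlapped. With counts summed, the ratio of large to small subunit was 1.033, 1.028 and 1.027 after trypsin and 1.077, 1.068 and 1.066 after TrypLE, and the groups did not overlap. After trypsin the sums were lower by 31.3% for the large and 28.5% for the small subunit. Summed per kilobase, the ratio was 0.989 ± 0.00415 after trypsin and 1.06 ± 0.0121 after TrypLE (SD, n = 3 libraries each). No test was made of these scores, since the members were taken from a list of genes that differ, and 28 of the 77 standard ribosomal protein symbols that the name pattern covers were not listed.

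**Figure D3:**
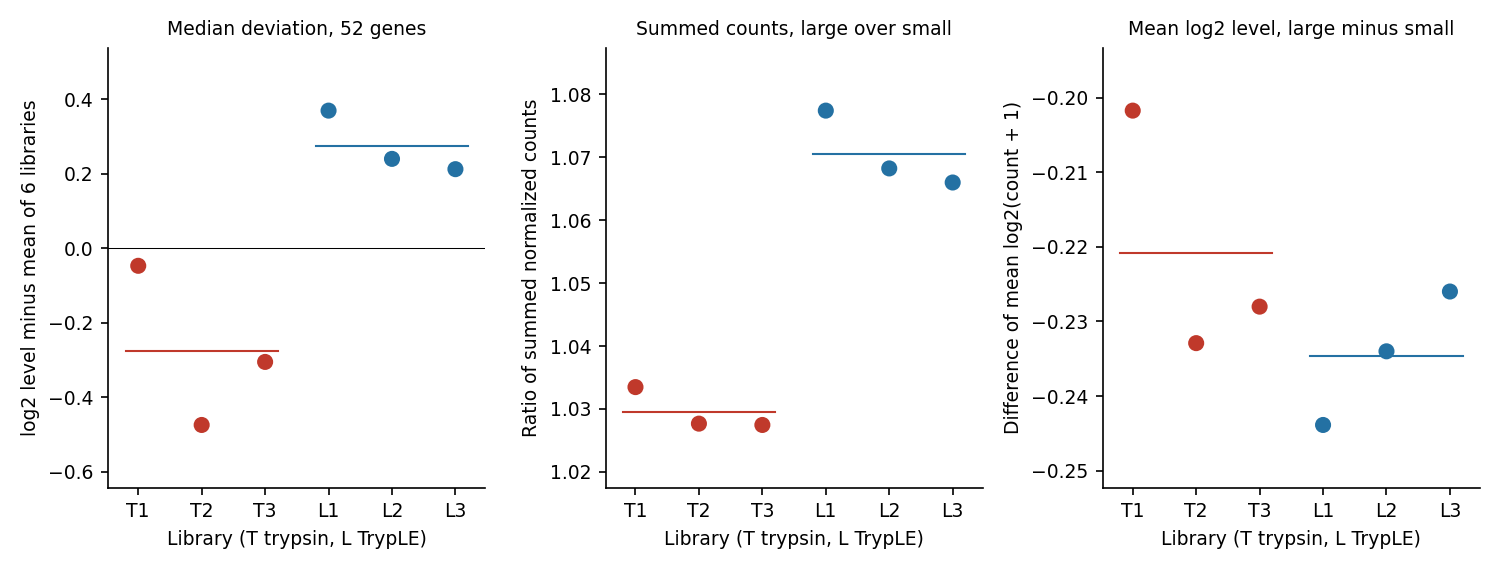
Summaries of the 52 ribosomal protein genes in each library at 0 h, with T for trypsin (red), L for TrypLE (blue) and bars for group means. Left, the median over genes of the log2 level minus the mean of 6 libraries; middle, the ratio of summed normalized counts of large to small subunit genes; right, the mean log2 level of large minus small subunit genes. The left and middle panels separate the groups, and in the right panel they overlap.

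The libraries of each group kept much the same order over the members. Trypsin replicate 1 was the highest trypsin library for 51 of the 52 genes and trypsin replicate 2 the lowest for 49. TrypLE replicate 1 was the highest TrypLE library for 40 and replicate 3 the lowest for 31. The median log2 deviation of the members from the mean of 6 libraries was -0.05, -0.47 and -0.31 with trypsin and 0.37, 0.24 and 0.21 with TrypLE. Other listed genes under 1000 bases with a mean of at least 50 normalized counts had -0.09, -0.46 and -0.33 and 0.42, 0.28 and 0.21. The members and these other short genes moved by like amounts in every library. The other short genes still include unnamed loci described as ribosomal proteins, so the sets are not independent. The part of gene length in the result was not tested beyond this and a refit with a length trend.

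Within groups the trypsin libraries differed by 1.05-fold to 1.47-fold from lowest to highest, and 0 members exceeded 1.5-fold. The TrypLE libraries differed by 1.03-fold to 2.63-fold, with 8 members above 1.5-fold, namely RPS27, RPS29, RPL38, RPL39, RPL37, RPL21, RPL37A and RPS27L. TrypLE replicate 1 was the high library in all 8. Without it the edgeR log2 fold change of RPS27 went from -1.70 to -1.12 (adjusted p = 0.000744) and that of RPS29 from -1.67 to -1.26 (adjusted p = 0.00097). RPL38 went to -1.21, RPL39 to -1.14 and RPS26 to -1.14 in the same refit, with adjusted p of 0.00102, 0.000732 and 0.000732 by edgeR.

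Ribosomal protein genes are short, and short listed genes as a whole were lower after trypsin. Of the 41 members under 1000 bases, 27 passed as lower in the authors' deposited table (41 lower in all). Of the 319 other listed genes of that length 118 passed as lower (285 lower in all) and 4 as higher. The median log2 fold change was -0.55 for these members and -0.70 for the other short genes. Unnamed loci described as ribosomal proteins are among the other short genes and were not taken out. The 11 members of at least 1000 bases had a median of -0.49, and 7 of them passed. Over all lengths 182 of the 1185 other listed genes passed as lower, the 118 short ones included. When a trend on gene length was removed from each library in edgeR, the median of the members went to 0.06, with 23 lower and 29 higher. This refit called 5 members lower, RPS26, RPS25, RPS21, RPL36 and RPL31, and 1 higher, RPLP1 (adjusted p = 0.0437 by edgeR), where 2.96% of the genes tested were called lower. The log2 fold changes of the former were -0.57, -0.41, -0.75, -0.49 and -0.69 with the trend removed. The listed genes, the members included, gave the trend, so removing it also removes any change common to short genes.

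The listed members were not an even sample of the ribosome. Of the standard symbols, 27 of 46 large and 22 of 31 small subunit genes were listed. Of the small subunit, RPS2, RPS3, RPS3A and RPS4X were not listed. RPSA, RPLP0, RPL3, RPL4, RPL6, RPL7, RPL7A, RPL8 and RPL9 were not listed under these symbols either. A symbol can be missing because its gene did not reach the unadjusted p or because the annotation gives its gene no standard symbol.

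The table held 3 paralogs of standard ribosomal proteins. RPS27L, which differs from RPS27 in a few residues and is induced by p53 in human cells, had 1053, 808 and 974 normalized counts in trypsin replicates 1 to 3 against 2342, 1504 and 1452 in TrypLE replicates 1 to 3. Its log2 fold change of -0.90 passed in the authors' deposited table (adjusted p = 3.32e-05), against -1.70 for RPS27, and per kilobase its level after TrypLE was 1680.2 normalized counts against 5544 for RPS27. RPL39L, a testis-enriched copy of RPL39 in mammals, had 310.1 ± 64.5 normalized counts with trypsin against 432 ± 60.01 with TrypLE (SD, n = 3 libraries each). Its log2 fold change of -0.48 did not pass (authors' deposited table, adjusted p = 0.251), its libraries overlapped, and per kilobase it stood at 502 normalized counts after TrypLE against 7634 for RPL39. RPL22L1 had 1581 ± 259 normalized counts with trypsin against 2078 ± 215 with TrypLE (SD, n = 3 libraries each), a log2 fold change of -0.39, and did not pass (authors' deposited table, adjusted p = 0.162). RPL22 passed there with -0.45 (adjusted p = 0.0106), and per kilobase the levels of the pair were alike, 2512 for RPL22 and 2793 for RPL22L1 after TrypLE. The difference between a gene and its paralog was not tested. RPL22 was chosen for naming as the partner of RPL22L1.

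A further 74 listed loci carry no standard symbol but are described in the table as cytosolic ribosomal proteins, 60 as protein coding and 14 as pseudogenes. They were chosen by description after the values were seen. Of these, 63 were lower and 11 higher after trypsin, and 27 passed as lower and 3 as higher in the authors' deposited table. Over all listed genes 57.1% were lower and 17.5% passed as lower. Among listed non-members under 1000 bases 118 of 319 passed as lower. Those 319 include the loci described here that are under 1000 bases, so they are not a separate set to compare with. The median level of the 74 loci was 251 normalized counts per kilobase, against 7109.7 for the named members. A locus described as ribosomal protein S26 (gene 103241722) had 589 ± 93.5 normalized counts with trypsin against 1129 ± 98.1 with TrypLE (SD, n = 3 libraries each; log2 fold change -0.94, authors' deposited table, adjusted p = 2.22e-08), against -1.23 for RPS26 itself. A locus described as S27 (gene 119619012) had 313, 273 and 155 normalized counts in trypsin replicates 1 to 3 against 864, 1328 and 949 in TrypLE replicates 1 to 3, and there TrypLE replicate 1 did not stand apart as it did in RPS27. In the opposite direction, a locus described as like S2 (gene 103219975) had 484, 388 and 546 normalized counts in trypsin replicates 1 to 3 against 241, 206 and 265 in TrypLE replicates 1 to 3, so that its log2 fold change was 0.99 (authors' deposited table, adjusted p = 3.42e-06), and another described as like S18 (gene 103228685) had 0.53 (adjusted p = 0.0373), while RPS18 itself had -0.47. How reads that match several near-identical copies were counted is not given in the sources used here, so values of a named gene and of its copies are uncertain where they share sequence, and 31 of the 52 members had at least 1 such listed copy. Of those with a listed copy 25 passed as lower, and of the 21 without one 9 did. Members with and without a copy also differed in median level (5803 and 8919 normalized counts per kilobase) and median length (677 and 769 bases). Whether copies bear on the calls was not tested.

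Of the genes behind the authors' adjustment, 7.48% were listed, and other lists of the translation machinery are read against that share. Of 38 elongation and initiation factors, 1 was listed, EIF1, which helps select the start codon, with 7715 ± 602 normalized counts with trypsin against 8902 ± 484 with TrypLE (SD, n = 3 libraries each), and it did not pass (authors' deposited table, adjusted p = 0.661). Of 17 other oligopyrimidine tract mRNAs and ribosome-associated factors 3 were listed and 0 passed. They were FAU, whose product holds small subunit protein RPS30, TPT1 and the nascent chain factor BTF3, at -0.31, -0.28 and -0.65 on the log2 scale in the authors' deposited table. Of 43 ribosome biogenesis genes 3 were listed, all lower, and 1 passed, NOP10, a core protein of the box H/ACA particles that guide pseudouridylation, with 889 ± 137 normalized counts with trypsin against 1229 ± 47.5 with TrypLE (SD, n = 3 libraries each; authors' deposited table, adjusted p = 0.0307). GAR1 of the same particles and NOP16 stood at -0.57 and -0.27 there and did not pass.

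The enzyme-free control and the later times were available as 1 mean per group, on an FPKM scale, for 340 genes that the authors selected by a rule not given in the sources used here. These means are given with no error and no n, and library values were available only for trypsin and TrypLE at 0 h. No group could thus be tested against the control or a later time, and differences between groups are described only. Of the members, 28 were in this table, 15 large and 13 small subunit genes, and all of them had passed as lower after trypsin in the authors' deposited comparison. Their order between trypsin and TrypLE at 0 h was thus set by selection, and comparisons with the control below share its samples. Directly after trypsin all 28 were below the control, at 45.5% to 77.2% of it with a median of 64.1%, where 75.9% of the genes in the table were below it. The median of all 340 genes was 70.6% of the control. A difference of at least 1.5-fold was found in 17 of the 28 members, against 38.8% of the genes in the table. Directly after TrypLE all 28 were above the control, at 100.8% to 153% with a median of 115%, where 55.3% of the genes in the table were above it. Over all 340 genes the median was 104.9%. The highest shares were those of RPS29 (153%) and RPS27 (152.7%). In these genes TrypLE replicate 1 held 2.00-fold and 2.49-fold the mean of the other TrypLE libraries, so the top of the range leans on 1 library.

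After 8 h in culture the members were close to the control with both enzymes. The median was 98.2% of the control after trypsin, with a range of 84.9% to 141% and 11 of 28 members above it, where 42.1% of the genes in the table were above. After TrypLE the median was 97.0%, with a range of 83.8% to 104% and 7 members above, against 36.8% of the genes in the table. Over all 340 genes the medians at 8 h were 95.6% after trypsin and 95.4% after TrypLE. At 24 h the member medians of the enzymes stood on opposite sides of the control. The trypsin group was at a median of 115% with 22 of 28 members above the control (50.3% of the genes in the table), and the TrypLE group at 85.7% with 27 below it (65.3% of the genes in the table). The exception after TrypLE was RPL28, at 104%. Over all 340 genes the medians at 24 h were 100.1% after trypsin and 89.9% after TrypLE. Trypsin over TrypLE at 24 h was above 1 for 27 members, with a median ratio of 1.29, where 52.4% of the genes in the table were above 1. At 0 h the median ratio of the members was 0.549. Over all 340 genes the median ratio was 1.02 at 24 h and 0.809 at 0 h.

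**Figure D4:**
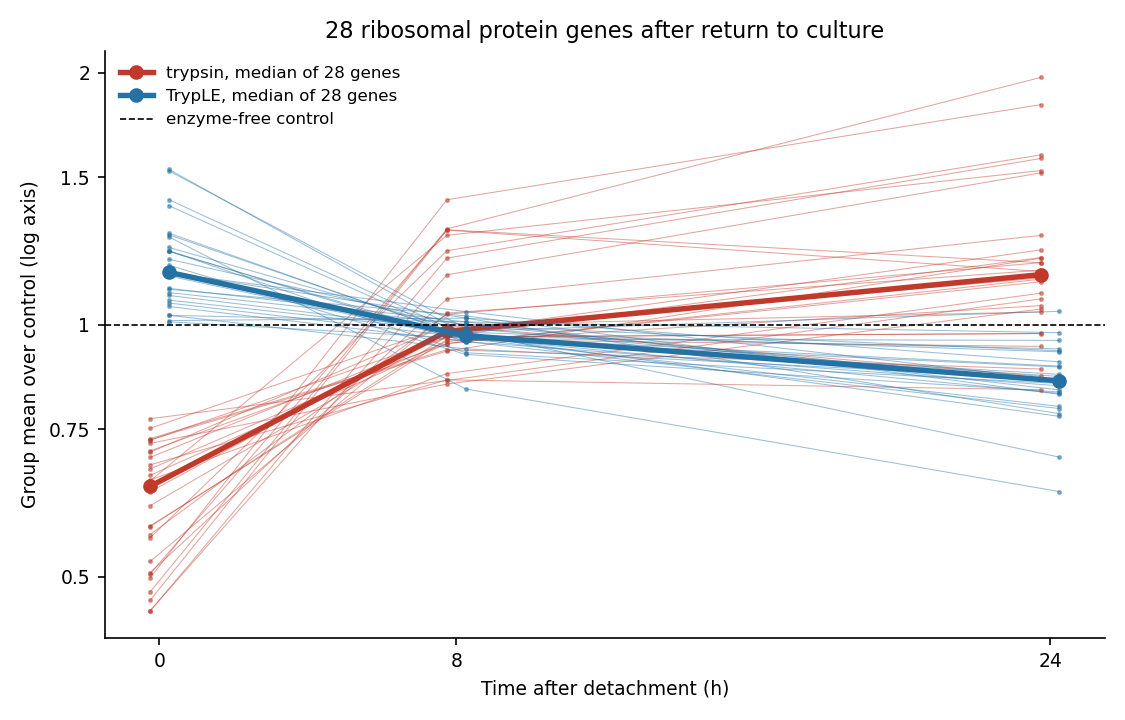
Group mean over the mean of the enzyme-free control (log axis) against hours after detachment for the 28 genes with a mean in every group. Thin lines are single genes and thick lines the median, for trypsin (red) and TrypLE (blue). The means are given without error. The trypsin median runs from 0.641 over 0.982 to 1.15, and the TrypLE median from 1.15 over 0.970 to 0.857.

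Some of the members that were lowest against the control directly after trypsin were highest against it at 24 h. RPL38 had authors' FPKM-scale means of 191 in the control, 95.1, 269 and 349 at 0, 8 and 24 h after trypsin, and 269, 185 and 148 after TrypLE. It was lowest directly after trypsin and highest 24 h later. RPS29 had means of 56.2 in the control, 26.9, 73.2 and 111 at 0, 8 and 24 h after trypsin, and 86.2, 54.7 and 48.2 after TrypLE, the same order of extremes, and was at 197% of the control at 24 h after trypsin, the highest share of the 28 members. RPL36 had means of 339 in the control, 154, 389 and 515 at 0, 8 and 24 h after trypsin, and 391, 351 and 291 after TrypLE. RPL37, RPL37A and RPS28 likewise were at 158%, 159% and 153% of the control at 24 h after trypsin. These and RPL38, RPS29 and RPL36 were the 6 members at least 1.5-fold above the control there, where 14.1% of the genes in the table were.

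RPL28, the member with the highest mean in the control, had authors' FPKM-scale means of 1751 in the control, 1142, 1529.9 and 1909 at 0, 8 and 24 h after trypsin, and 1897, 1718 and 1816 after TrypLE. RPL35 had means of 1553 in the control, 892, 1490.3 and 1463 at 0, 8 and 24 h after trypsin, and 1565, 1495 and 1240.0 after TrypLE, and RPS15 of 1036 in the control, 719, 1001 and 1011 at 0, 8 and 24 h after trypsin, and 1047, 1054 and 811 after TrypLE. These 3 genes were below the control at 8 h after trypsin, and at 24 h RPL35 and RPS15 still were. RPL34 and RPL27 were at 86.7% and 88.5% of the control at 24 h after trypsin, as the lowest of the large subunit. RPS26, with the lowest p between the enzymes at 0 h, had means of 429.7 in the control, 224, 444 and 499 at 0, 8 and 24 h after trypsin, and 526, 410.0 and 363 after TrypLE. RPS27 had means of 231 in the control, 108, 299.8 and 274 at 0, 8 and 24 h after trypsin, and 353, 229 and 198 after TrypLE, so that after trypsin its mean was higher at 8 h than at 24 h.

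The paralog RPS27L differed in course from RPS27 in these means, a difference that could not be tested. It had authors' FPKM-scale means of 83.9 in the control, 57.1, 72.1 and 70.2 at 0, 8 and 24 h after trypsin, and 107, 70.3 and 53.0 after TrypLE. It stayed below the control at 8 and 24 h with both enzymes, as did RPL34, RPL35 and RPLP2. RPS27 was above the control at both times after trypsin and below it at both after TrypLE. RPS27L was lowest at 24 h after TrypLE, at 63.2% of the control. At 24 h after trypsin it had the lowest share of the control of all 28 members, 83.6%. It was also the 1 member with its lowest mean in a group other than trypsin at 0 h, since the other 27 were lowest there. The highest mean was found directly after TrypLE for 14 members and at 24 h after trypsin for 12. No member was highest in the control. Summed over the members, the ratio of large to small subunit means was 1.46 in the control, 1.38 directly after trypsin and 1.48 directly after TrypLE. At 8 and 24 h it was 1.49 and 1.46 after trypsin and 1.46 and 1.52 after TrypLE, so that the lowest ratio was in the group with the lowest sums. With no replicate values for the control and the later times, shifts that involve them cannot be set against error. Library values exist for trypsin and TrypLE at 0 h. There the ratio summed per kilobase over all 52 members was 0.989 ± 0.00415 and 1.06 ± 0.0121 (SD, n = 3 libraries each).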

How the data were processed

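The submitters' processing notes name HISAT2 2.0.5 (an aligner) and featureCounts 1.5.0-p3 (a read counter). Which genome build and annotation served, how the authors tested and how multiply matching reads were treated is not given in the sources used here. The deposited comparison table gives, for each library, the signal left by the authors after division of each read count by its library's size factor (0.944 to 1.09). All values in the 6 libraries were whole multiples of the step of their column within 0.01 reads (100%), which gave back the read counts, though for TrypLE replicate 1 on fewer low values. The log2 fold changes, p-values and adjusted p-values in it are the authors' own, and 101 listed genes, none a member, carry an adjusted p of 1. The other 1136 match the Benjamini-Hochberg procedure applied to 15194 genes, within a share of 0.01 of each value. A deposited union table holds group means with no unit in its header, which equal normalized counts per kilobase divided by 15.7 (coefficient of variation 0.108%) and are called the authors' FPKM-scale means here. Pathway statistics were not used.

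The planned count test on all genes could not be run, since only genes under an unadjusted p are listed. The authors' adjusted p, with a threshold of 0.05, is therefore the main result. With R 4.3.3, listed genes were refitted by the quasi-likelihood test of edgeR 4.0.16 after its default filter and by DESeq2 1.42.0, both on recovered reads, and by limma 3.58.1 on log2(normalized count + 1), adjusted over the same number of genes, and called 170 genes in edgeR. Alternatives were other scaling factors, filters, pseudocounts, a loess trend on gene length as an offset, the replicate number as a block and each library left out. The refits were tested on simulated data. Subunit scores, copies and union means are descriptions. Genes were named by a rule: the 6 largest falls without overlap and the 3 smallest differences of each subunit, members in the union table, extremes of level, paralogs and neighbours of the threshold, plus those the text marks. A few members are not reported by name here. The members and lists were chosen with earlier results of these data known. Other computations used Python 3.11.15, pandas 2.3.3, numpy 2.4.6, scipy 1.17.1 and matplotlib 3.10.9.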

Additional observations from a re-analysis of the deposited data

How the results depend on the processing

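The direction of all 52 ribosomal protein genes was kept in 15 of the 16 refits, and the number called lower was 34 for the authors and 24 with edgeR and their size factors. It was 21 with TMM factors in edgeR (large subunit 11, small subunit 10; 9.76% of genes tested called lower), 17 with median-ratio factors (9 and 8, 6.8%) and 5 with the length trend removed (2 and 3, 2.96%). With no filter on low counts 10 small subunit genes were called, with 11.6% of genes tested called lower. Leaving out trypsin replicates 1, 2 and 3 gave 37, 22 and 19 calls and leaving out TrypLE replicates 1, 2 and 3 gave 17, 18 and 23, from 9 to 20 large and 8 to 17 small, lowest without TrypLE replicate 1 and highest without trypsin replicate 1. Of all genes tested, 15.8, 10.7, 10.9 and 7.26, 9.15, 13.9% were called lower in these 6 refits, in the same order. The replicate block in edgeR gave 28 (16 and 12), with 13.6% of genes tested called lower. Pairing was not shown, since deviations of same-numbered libraries correlated at -0.05 to 0.07 over 1024 genes. The median log2 fold change of the members went from -0.53 with the authors' size factors to -0.38 with TMM factors, -0.34 with median-ratio factors and 0.0582 with the length trend removed, while that of all listed genes went from -0.29 to -0.14, -0.0979 and 0.0242; without single libraries it ran from -0.67 to -0.44. Factors taken over the listed genes draw the median towards 0 by construction. Split by direction, edgeR called 154 listed genes lower and 16 higher with the authors' size factors, 112 and 76 with TMM factors and 78 and 56 with median-ratio factors. With the length trend removed 29 members were higher after trypsin on the log2 scale, among them RPS28 0.0914, RPL30 0.0411, RPL28 0.0132, RPL34 0.17, RPL27 0.17, RPS23 0.0655, RPS15 0.11, RPL39L 0.0827, RPS18 0.29, RPL32 0.29, RPS12 0.30, RPL24 0.28, RPS14 0.12, RPS24 0.12, RPL22L1 0.24, RPL23A 0.0599, RPS27A 0.22, RPL11 0.35, RPS13 0.40, RPL5 0.14, RPL19 0.31, RPLP1 0.52, RPS10 0.24, RPS20 0.49, RPL29 0.30 and RPS16 0.46. The large minus small subunit difference, trypsin minus TrypLE, was 0.0137 as a mean log2 value, -0.0564 from summed counts, -0.0860 from medians, -0.100 per kilobase and -0.0117 without paralogs, and 0.00416 to 0.0197 without single libraries; the cause was not tested. Medians over the control in the union table kept their direction with log2(mean + 1). The lack of unlisted genes and of replicate values in the union table limits all comparisons.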

Other observations

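RPL36AL, a near copy of RPL36A that lies outside the naming rule, had 1642, 1116 and 1343 normalized counts in trypsin replicates 1 to 3 against 2632, 2112 and 2207 in TrypLE replicates 1 to 3, and passed as lower in the authors' deposited table (log2 fold change -0.76, adjusted p = 4.04e-05). RPL36A was not listed under its symbol. A coding locus described as L36a (LOC103232362) was listed, with 1293 ± 182 normalized counts with trypsin against 3433 ± 1089 with TrypLE (SD, n = 3 libraries each). It passed as lower with a log2 fold change of -1.41 (authors' deposited table, adjusted p = 0.00016). Loci described as like L17 moved both ways although RPL17 was not listed under its symbol. The locus numbered 103233138 (LOC103233138) had 181, 103 and 144 normalized counts in trypsin replicates 1 to 3 against 296, 229 and 246 in TrypLE replicates 1 to 3 and passed as lower (adjusted p = 0.00907 in the authors' deposited table). The locus numbered 103236321 (LOC103236321) had 114, 121 and 148 normalized counts in trypsin replicates 1 to 3 against 35.1, 57.7 and 77.0 in TrypLE replicates 1 to 3. It passed as higher (adjusted p = 0.00505 in the authors' deposited table). Another L17 locus of low counts, LOC119627135, passed as lower (log2 fold change -2.04, authors' deposited table, adjusted p = 0.029). All of these L17 loci have the biotype transcribed_pseudogene. The groups were apart at each, and reads shared between such copies were not resolved. RPL36AL, the L36a locus and the L17 loci were chosen after their values were seen.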
